A study of Mus musculus with 9 samples.

Results

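The replication-dependent histone genes are the mouse genes of the clusters named Hist1 to Hist4, which encode the core histones H2A, H2B, H3 and H4 and the linker histone H1. They were taken from a table of reads per gene as every entry whose symbol starts with Hist1h, Hist2h, Hist3h or Hist4, with pseudogene names left out and with 10 reads or more summed over the 9 libraries. Of 57238 entries, 69 had such a name and 54 reached the minimum, of which 5 encode H1, 13 H2A, 13 H2B, 10 H3 and 13 H4. The 15 names left out included 3 at 0 in every library. The sums next to the minimum were 10.24 reads (Hist2h2bb) and 10.5 reads (Hist1h2bk) inside it, and 7.51 reads (Hist1h2bp) and 6.62 reads (Hist1h2bn) outside it.

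The libraries came from bone marrow-derived dendritic cells (BMDCs) of wildtype C57BL/6 mice, grown from bone marrow for 6 days, according to the labels, with GM-CSF at 20 ng/ml. They were left without exosomes (CTR), or given exosomes of normal cells (NE) or of tumor cells (TDE) for 24 hours, with 3 libraries per group. The exosomes of normal cells came, by the study's methods, from the mouse fibroblast line NIH 3T3, and the labels do not name the tumor line behind the TDEs or the age of the mice. For BMDCs in general the study's methods state an age of the mice and a longer culture. They name a cervical and a colon carcinoma line as the sources of exosomes not otherwise specified. The labels number the libraries but do not say whether these were separate cultures or animals, so the p-values below measure the spread between these libraries, which may be technical.

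Replication-dependent histone genes are transcribed mainly in S phase, when new DNA has to be packed into nucleosomes. Most of their mRNAs end in a short stem-loop in place of a poly(A) tail. The stem-loop binding protein SLBP holds this end through processing, translation and decay, and NPAT drives transcription of the clusters. Cells that leave the cycle can also make polyadenylated forms of some of these mRNAs. BMDC cultures hold cycling precursors beside cells that have stopped dividing, and the library chemistry described by the study used both oligo(dT) and random primers.

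By GENCODE vM21, 42 of the 54 genes lie on chromosome 13 between positions 21716422 and 23764406 (GRCm38), 9 on chromosome 3 between 96220361 and 96270132, 2 on chromosome 11 and 1 on chromosome 6. A perfect stem of 6 base pairs with a loop of 4 bases was found after the stop codon in annotated transcripts of 41 genes. It could not be found where the annotation ends at the stop codon (Hist1h1b, Hist1h2ai, Hist1h2ak, Hist1h3i, Hist1h4k and Hist2h2bb) or 1 base after it (Hist1h2af). The search pattern fixed 2 leading G and 2 closing C. Within 100 bases of the stop codon it was met in 0.24% of 21699 protein-coding genes, and in 6 of the 21632 without these histone names, of which H2afx and H2bfm are histone genes too. The loop began 21 to 58 bases after the stop codon, with a median of 31. The sequences below show the stem-loops of genes whose levels the results turn on, with 5 bases on each side. Capitals mark the stem-loop.
Hist1h1c: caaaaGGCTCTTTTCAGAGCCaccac
Hist3h2a: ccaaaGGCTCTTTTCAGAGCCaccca
Hist2h2aa2: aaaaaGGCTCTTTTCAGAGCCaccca
Hist2h3c2: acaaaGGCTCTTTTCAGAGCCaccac
Hist1h4i: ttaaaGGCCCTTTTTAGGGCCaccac
Hist1h4h: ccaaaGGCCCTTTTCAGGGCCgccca
The form in Hist1h1c was shared by 23 genes and that in Hist1h4h by 7. The form in Hist1h4i was found in 2. No annotated transcript of Hist1h2bc or Hist2h2be held the pattern, and both have long 3′ UTRs.

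The annotated 3′ ends fell into different lengths. In 26 genes the longest 3′ UTR ran over 150 bases, and in 28 it was shorter or not annotated, a division chosen after the values were seen. A polyadenylation signal (AATAAA or ATTAAA) within 40 bases of a transcript end was found in 15 genes, 14 of them with a long 3′ UTR. Hist1h1c has 840 annotated bases after its stem-loop and such a signal, whereas Hist2h2aa1 and Hist2h2aa2 each have 35 bases after it and none.

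Of the 54 genes, 48 matched a RefSeq promoter (GRCm38.p6), in which 250 bases before the start were searched on both strands. CCAAT was present in 77.1% of these promoters against 34.5% of all 27025, and in 100% of those of H1, H2A and H2B genes but 25% of those of H4 genes. The H1 box, AAACACA, was in 80% of the H1 promoters against 6.22% of all, and the octamer, ATTTGCAT, in 41.7% of H2A and 36.4% of H2B promoters against 1.61%. TATAAA was in 45.8% against 13%. The 150 bases before the RefSeq start of the H1 genes whose mRNAs fell in TDE-treated BMDCs are shown with these motifs in capitals. They lie at chr13:23738657-23738806 and chr13:23554882-23555031, both on the plus strand. The window of Hist1h1d lies inside that gene as annotated by GENCODE, where it begins upstream at position 23553262.
Hist1h1c: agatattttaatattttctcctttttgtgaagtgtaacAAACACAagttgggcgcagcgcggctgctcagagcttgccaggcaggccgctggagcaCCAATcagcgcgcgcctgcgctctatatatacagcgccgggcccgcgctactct
Hist1h1d: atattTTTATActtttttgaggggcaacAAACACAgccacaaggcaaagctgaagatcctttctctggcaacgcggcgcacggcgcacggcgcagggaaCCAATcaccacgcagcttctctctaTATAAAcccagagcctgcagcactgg
Hist1h1c carries the H1 box and CCAAT, and Hist1h1d carries both with TATAAA on each strand. The matches are a description of these windows.

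Reads could not always be assigned to 1 of these genes. In 25 genes, 50% or more of the 50-base stretches of their transcripts also occur in another gene, and 48 of 54 had a fractional, that is estimated, read number in at least 1 library, against 42.2% of all entries with reads. Sums are therefore also given for the copies Hist2h2aa1 and Hist2h2aa2, Hist2h3c1 and Hist2h3c2, and Hist1h2bq and Hist1h2br. Hist1h4m and Hist1h4n, which share 89.8% and 85.6% of their stretches with other genes, were not summed. Hist1h1c shared 8.5% of its stretches and Hist2h2be 0%, whereas Hist2h2aa2 shared 100% and Hist2h2aa1 89.4%. Exons of Hist3h2a overlap Trim17 on the same strand, so its values may hold reads of that gene. Same-strand overlaps were also annotated between Hist1h2be and Hist1h1e, and of both with Gm11398. Hist2h2aa1 and Hist2h3c1 overlap Gm20634, Hist1h2ac overlaps Gm24991 and Hist2h2bb overlaps Gm42743.

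The libraries held 17469713 to 21092850 reads, and 3 reads correspond to 0.142 to 0.172 CPM, the read count scaled to library size. CPM values of genes are further scaled by TMM, which sets most genes to a common level. The library CTR_1 stood apart. Its TMM factor was 0.7508 against 0.9995 to 1.074 in the others, and its log2 levels correlated with those of CTR_2 and CTR_3 with a mean r of 0.87, against 0.977 to 0.99 within the NE and TDE groups. Results are therefore given with and without CTR_1, and the common dispersion (the squared variation between libraries of 1 group) was 0.106 with it and 0.015 without it. Groups were compared by the quasi-likelihood test of edgeR across 15028 genes, of which 20 were replication-dependent histone genes, with Benjamini-Hochberg adjusted p-values called below 0.05. By class these were 2 H1, 6 H2A, 6 H2B, 2 H3 and 4 H4 genes. The 34 genes with too few reads had means over the libraries of 0.0636 to 0.562 CPM for 3 H1, 0.084 to 0.323 for 7 H2A, 0.054 to 0.358 for 7 H2B, 0.0729 to 0.529 for 8 H3 and 0.155 to 0.642 for 9 H4 genes.

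Summed mRNA of replication-dependent histone genes was lowest in TDE-treated BMDCs. The summed level of the 54 genes was 454 CPM in CTR_1, 202 in CTR_2 and 175 in CTR_3. It was 167, 166 and 205 CPM in the NE libraries and 83.4, 93.9 and 82.2 CPM in the TDE libraries. All 3 TDE libraries thus lay below the 6 others, while the NE libraries and CTR_2 and CTR_3 overlapped. The log2 ratio of the means was -1.68 for TDE against CTR and -1.12 without CTR_1, and -1.05 for TDE against NE. For NE against CTR it was -0.63, and -0.07 without CTR_1. These comparisons share libraries, so they are not independent of each other. In such bulk samples fewer cycling cells and less histone mRNA per cell cannot be told apart.

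**Figure D1:**
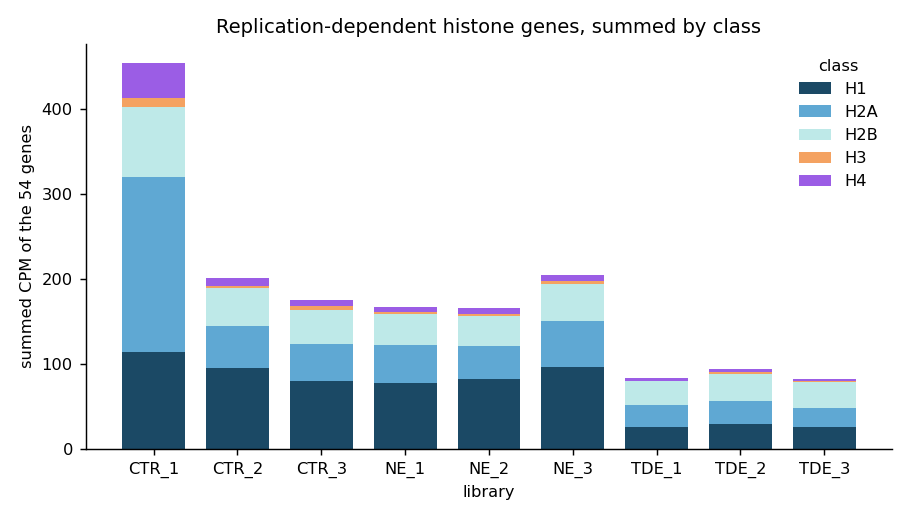
Summed CPM of the 54 replication-dependent histone genes in each library, stacked by histone class. The TDE libraries sum to between 82.2 and 93.9 CPM, below every CTR and NE library, and CTR_1 reaches 454 CPM.

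Sums by histone class gave unequal ratios, which were not tested against each other and rest on few genes. Linker histone H1 mRNA summed to a mean of 27.1 ± 2.19 CPM (SD, n = 3) in TDE-treated BMDCs and 85.5 ± 9.83 CPM (n = 3) in NE-treated BMDCs, a log2 ratio of -1.66, and Hist1h1c alone made up 26.7 and 84.2 CPM of these. For H2A the log2 ratio of TDE to NE was -0.88, for H2B -0.35, for H3 -1.31 and for H4 -1.08. The ratio was nearest to 0 for H2B, where Hist1h2bc and Hist2h2be made up 18.3 and 9.87 of 30.2 CPM in TDE. Against CTR without CTR_1 the log2 ratios were -1.69 for H1, -0.91 for H2A, -0.48 for H2B, -1.77 for H3 and -1.37 for H4. The H3 and H4 sums were low in every library but CTR_1, at no more than 4.54 and 9.26 CPM. Without Hist1h1c, the other 53 genes had a log2 ratio of -0.67 for TDE against NE and -0.77 for TDE against CTR without CTR_1.

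Hist1h1c, which encodes the linker histone H1.2, was the H1 gene with the most reads. It lies on chromosome 13, plus strand, at chr13:23738808-23740367 (GRCm38). It was measured at 109, 93.4 and 79.1 CPM in the CTR libraries and at 77.3, 80.7 and 94.7 CPM in the NE libraries. In the TDE libraries it was at 25.7, 29.3 and 25.1 CPM, below every library of the other groups, whose values overlapped each other. Hist1h1c fell 3.51-fold in TDE-treated against CTR BMDCs (log2 fold change -1.81 ± 0.162 SE, adjusted p = 0.000374) and 3.15-fold against NE-treated BMDCs (-1.66 ± 0.162, adjusted p = 0.000488). Without CTR_1 the log2 fold change against CTR was -1.70 ± 0.119 (adjusted p = 1.32e-05). On the scale of CPM per kilobase, over the 8 libraries other than CTR_1, Hist1h1c also had the highest level of the 54 genes, at 40.5, followed by Hist1h2bc at 18.7, Hist2h2aa2 at 18.3 and Hist2h2aa1 at 14.7.

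Of the other H1 genes, Hist1h1d (H1.3) was the 1 with enough reads to be tested, at chr13:23553262-23560686, plus strand. It had 2.03, 0.587 and 0.656 CPM in CTR, 0.159, 0.868 and 0.895 CPM in NE and 0.111, 0.0546 and 0.157 CPM in TDE. Its TDE libraries together held 6 reads and lay below all the others. TDE_3 and NE_1 held 3 reads each, so their order (0.157 and 0.159 CPM) comes from the scaling. Hist1h1d fell in TDE-treated against CTR BMDCs (log2 fold change -3.24 ± 0.846, adjusted p = 0.035, and -2.46 ± 0.769, adjusted p = 0.0353, without CTR_1). Against NE the log2 fold change was -2.50 ± 0.861 (adjusted p = 0.098), which passed without CTR_1 (-2.51 ± 0.718, adjusted p = 0.0213). From the reads alone, its TDE level was 16.8% of the NE level, with an exact 95% interval of 5.78% to 40.1% that covers counting error only. Hist1h1e (H1.4), Hist1h1a and Hist1h1b were too low to be tested, with means over the libraries of 0.562 CPM or less. 

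Among H2A genes, the near-identical copies Hist2h2aa1 and Hist2h2aa2 had together the highest mean level over the 9 libraries, which CTR_1 raised, while Hist3h2a alone was higher in the TDE libraries TDE_1 to TDE_3 and in NE_1 and NE_2. They lie at chr3:96245497-96246082 (plus strand) and chr3:96239749-96240276 (minus strand). Their sum was 150 CPM in CTR_1 but 24.1 and 21.4 CPM in CTR_2 and CTR_3. It was 20.8, 18.4 and 27.8 CPM in NE and 11.9, 11.8 and 10.1 CPM in TDE. CTR_1 lay far above the rest, the TDE libraries were the lowest 3 of 9, and the log2 ratio of TDE to CTR was -2.53 with CTR_1 and -1.01 without it, against -0.99 for TDE to NE. Taken alone, Hist2h2aa2 fell in TDE-treated against CTR BMDCs (log2 fold change -2.44 ± 0.678, adjusted p = 0.0428, and -1.11 ± 0.224, adjusted p = 0.00487, without CTR_1). Hist2h2aa1 did not pass over all 9 libraries (-2.60 ± 0.805, adjusted p = 0.0598) and passed without CTR_1 (-0.94 ± 0.302, adjusted p = 0.0397), as it did without CTR_2 or without CTR_3.

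Hist3h2a, an H2A gene at chr11:58954685-58956830 (plus strand), was at 43.9, 22.5 and 20.4 CPM in CTR, 21.6, 19.1 and 23.1 CPM in NE and 12.1, 13.2 and 10.7 CPM in TDE. No TDE library reached the lowest of the others. It fell in TDE-treated against CTR BMDCs (log2 fold change -1.27 ± 0.286, adjusted p = 0.0203), and by 0.85 on the log2 scale without CTR_1 (SE 0.119, adjusted p = 0.000717). Against NE the log2 fold change was -0.83 ± 0.284 (adjusted p = 0.0973), which passed in the fit without CTR_1 (-0.84 ± 0.109, adjusted p = 0.000353). Hist1h2ae had 0.831, 0.655 and 0.47 CPM in TDE against 0.555 to 1.84 CPM in CTR and 0.488 to 0.849 CPM in NE, and its groups overlapped. Hist1h2ac and Hist1h2ap also had few reads, with log2 fold changes against CTR of -1.17 ± 0.533 (adjusted p = 0.156) and -4.33 ± 1.31 (adjusted p = 0.056), and Hist1h2ap had 2 reads in the TDE libraries together.

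**Figure D2:**
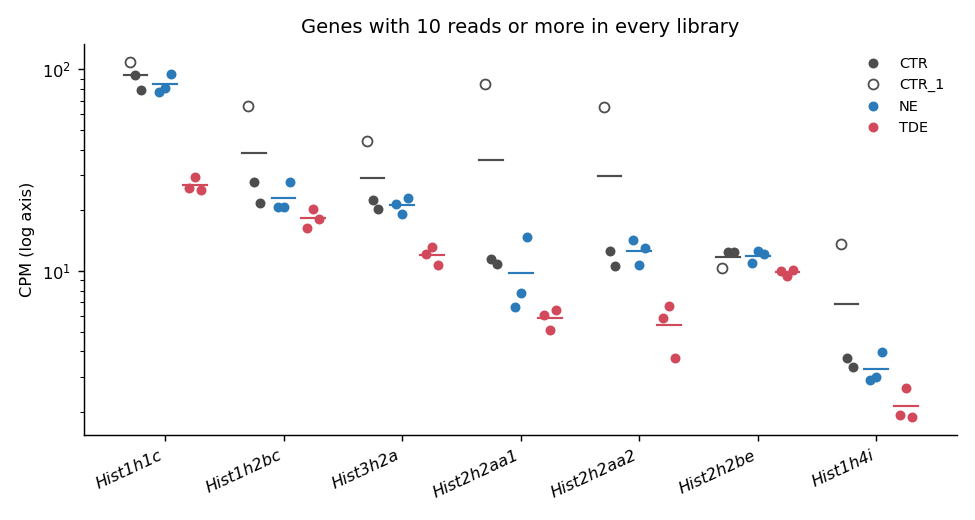
CPM (log axis) in every library of the 7 replication-dependent histone genes with 10 reads or more in each, with a line at the mean of each group and CTR_1 as an open circle. For each gene the 3 TDE libraries lie below all CTR and all NE libraries, and CTR_1 is the highest library for all but Hist2h2be.

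Of the 6 tested H2B genes, 0 passed edgeR's test in either comparison over all 9 libraries. At an unadjusted p-value under 0.05, Hist1h2bc was lower against CTR and Hist1h2br lower and Hist1h2bq higher against NE, and DESeq2 called Hist1h2bc lower against CTR and Hist1h2bq higher against NE. Hist1h2bc (chr13:23684199-23692908, plus strand) was at 65.7, 27.6 and 21.7 CPM in CTR, 20.7, 20.8 and 27.6 CPM in NE and 16.3, 20.4 and 18.1 CPM in TDE. Its highest TDE library, 20.4 CPM, lay just below its lowest NE library. The log2 fold change of TDE against CTR was -1.07 ± 0.382 (adjusted p = 0.0909), and -0.44 ± 0.162 (adjusted p = 0.0633) without CTR_1. Hist2h2be (chr3:96221119-96223738, plus strand) shared no sequence with another gene. It was at 10.3, 12.5 and 12.5 CPM in CTR, 11.0, 12.6 and 12.2 CPM in NE and 10, 9.44 and 10.1 CPM in TDE, a narrow step below the other groups. Its log2 fold change was -0.25 ± 0.138 against CTR (adjusted p = 0.228) and -0.27 ± 0.138 against NE (adjusted p = 0.26). It passed without CTR_1, at -0.35 ± 0.0999 (adjusted p = 0.0258) and -0.28 ± 0.0908 (adjusted p = 0.0348).

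The remaining H2B genes had few reads. Hist1h2bg was at 0.127 CPM in CTR_1 but 1.76 and 1.66 CPM in CTR_2 and CTR_3, unlike most of these genes, and at 0.499, 0.109 and 0.418 CPM in TDE. Its log2 fold change of TDE against CTR was -1.79 ± 0.853 (adjusted p = 0.171), and -2.31 ± 0.517 (adjusted p = 0.00812) without CTR_1. Hist1h2be had 0.437 to 1.04 CPM in TDE, 0.38 to 1.22 CPM in NE and 1.08 to 1.21 CPM in CTR. Hist1h2bq and Hist1h2br, which are near-identical copies, had TDE to NE differences of opposite sign that did not pass over all 9 libraries (log2 fold changes of 2.83 ± 0.964 and -3.62 ± 1.31, adjusted p = 0.0948 and 0.115) but passed without CTR_1 (2.83 ± 0.9 and -3.64 ± 0.745, adjusted p = 0.0329 and 0.00427), so the division of reads between them is uncertain. Summed, they were at 1.52, 0.993 and 1.61 CPM in CTR, 1.11, 0.488 and 1.44 CPM in NE and 0.333, 0.71 and 0.418 CPM in TDE, and TDE overlapped NE.

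For H3, the tested genes were the copies Hist2h3c1 and Hist2h3c2. Hist2h3c2 (chr3:96238108-96239127, minus strand) was at 2.34, 1.35 and 1.26 CPM in CTR and 1.01, 1.14 and 0.696 CPM in NE. In TDE it had 3 reads in TDE_1 (0.166 CPM) and none in the other two. It fell in TDE-treated BMDCs against CTR (log2 fold change -4.76 ± 0.834, adjusted p = 0.00717) and against NE (-3.97 ± 0.848, adjusted p = 0.017). With so few reads, the ratio of TDE to NE was 5.74%, with an exact 95% counting interval of 1.15% to 17.7%. Hist2h3c1 was at 0, 0.0452 and 2.02 CPM in CTR, 0.69, 0 and 0.497 CPM in NE and 0.111, 0.655 and 0.366 CPM in TDE, with no order between the groups. Since 63.5% of the stretches of Hist2h3c2 and 100% of those of Hist2h3c1 occur elsewhere, the sum of the copies is more certain. It was 2.34, 1.4 and 3.28 CPM in CTR, 1.7, 1.14 and 1.19 CPM in NE and 0.277, 0.655 and 0.366 CPM in TDE, so TDE lay below the other groups with a log2 ratio of -2.44 to CTR and -1.63 to NE.

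Among H4 genes, Hist1h4i (chr13:22040636-22041362, minus strand) had the most reads. It was at 13.6, 3.7 and 3.33 CPM in CTR, 2.87, 2.98 and 3.98 CPM in NE and 1.94, 2.62 and 1.88 CPM in TDE. All TDE libraries were below the others, by a smaller step than the one between CTR_1 and the rest. The log2 fold change against CTR was -1.67 ± 0.537 (adjusted p = 0.0677), and -0.72 ± 0.231 (adjusted p = 0.0389) without CTR_1. Hist1h4h and Hist1h4n fell in TDE-treated against CTR BMDCs, with log2 fold changes of -3.99 ± 1.12 (adjusted p = 0.0444) and -4.41 ± 0.995 (adjusted p = 0.0203). Without CTR_1 these were -2.04 ± 0.664 (adjusted p = 0.0415) and -3.88 ± 0.882 (adjusted p = 0.00882). Hist1h4h was at 6.72 CPM in CTR_1, 0.993 and 0.353 CPM in CTR_2 and CTR_3, 0.318 to 0.796 CPM in NE and 0.109 to 0.261 CPM in TDE. Hist1h4n was at 2.73, 1.31 and 0.959 CPM in CTR, 0.106 to 0.448 CPM in NE and 0, 0 and 0.209 CPM in TDE, so that its NE libraries too lay below CTR. In the TDE libraries together Hist1h4h had 9 reads and Hist1h4n 4. By reads the TDE level of Hist1h4n was 4.57% of the CTR level (exact 95% counting interval 1.22% to 12.1%) and 27.6% of the NE level (6.66% to 86.6%). Against NE no tested H4 gene passed over all 9 libraries. The log2 fold changes were -0.61 ± 0.534 for Hist1h4i (adjusted p = 0.565), -1.69 ± 1.16 for Hist1h4h (adjusted p = 0.433) and -1.77 ± 1.11 for Hist1h4n (adjusted p = 0.381). Without CTR_1 Hist1h4i passed against NE (-0.62 ± 0.212, adjusted p = 0.0441). Hist1h4n shares 85.6% and Hist1h4m 89.8% of their stretches with other genes, and no sum of these genes was taken. How reads were divided is uncertain, also for the order of NE and CTR in Hist1h4n. Hist1h4m and Hist1h4c were at 3.99 and 2.79 CPM in CTR_1 and at most 1.25 and 1.04 CPM in every other library, and Hist1h4c was not tested.

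**Figure D3:**
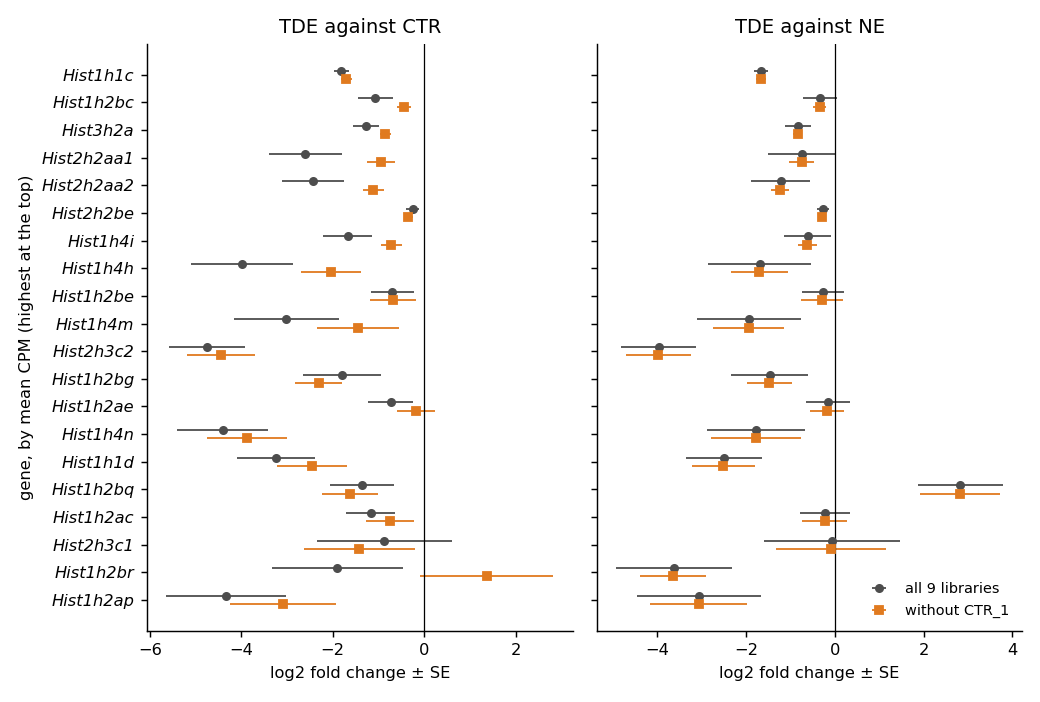
Log2 fold change with its standard error for the 20 tested replication-dependent histone genes, TDE against CTR (left) and TDE against NE (right), fitted over all 9 libraries (circles) and without CTR_1 (squares). Hist1h1c lies at -1.81 and -1.66, and leaving out CTR_1 moves most genes toward 0 against CTR but hardly moves them against NE.

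Across the 20 tested genes, 7 were called lower in TDE-treated against CTR BMDCs (Hist1h1c, Hist1h1d, Hist1h4h, Hist1h4n, Hist2h2aa2, Hist2h3c2 and Hist3h2a), where 9.34% of all tested genes were, and 0 were called higher, where 7.57% were. At an unadjusted p-value under 0.05 there were 12 lower and 0 higher, where 20.6% and 14.1% of all genes were. DESeq2 called 19 of the 45 histone genes with an adjusted p-value lower and 0 higher, where 11.6% and 9.04% of all were, and 11 of the 19 were among the 20. Against NE, 2 were called lower (Hist1h1c and Hist2h3c2), where 7.21% of all genes were, and 0 higher, where 6.73% were. There 5 were lower and 1 higher at an unadjusted p-value under 0.05, where 14% and 12.4% of all genes were. By DESeq2 2 of 45 were lower and 1 higher, where 7.06% and 7.51% of all were. The count against CTR also moved with single libraries, to 13 of 24 tested without CTR_3, where 15.8% of all genes were lower, to 2 of 26 without TDE_1, where 3.7% were, and to 2 of 25 without TDE_2, where 3.85% were. Genes that were low in TDE could enter the test through the reads of another group. Of the 20, 9 had no TDE library with 10 reads, so these counts are no measure of how many histone genes differ. The 7 genes with 10 reads or more in every library did not enter that way. Of these 7, 3 were called lower against CTR (Hist1h1c, Hist2h2aa2 and Hist3h2a) in a fit limited to such genes, where 9.46% of all were, and 1 against NE (Hist1h1c), where 7.26% were. All 7 had TDE libraries below every CTR library, where 21.9% of such genes did, and below every NE library, where 28.8% did. The 7 are not 7 separate measurements, since Hist2h2aa1 and Hist2h2aa2 are near-identical copies with divided reads. Hist3h2a may hold reads of Trim17.

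The calls against CTR differed in how many alternative analyses kept them. Hist1h1c was called in 16 of 16 and Hist2h3c2 in 15 of 15, Hist1h4n in 11 of 15 and Hist3h2a in 11 of 16. Hist2h3c2 had 3 reads in the TDE libraries together and was not tested with 10 reads in every library. No alternative summed it with its copy Hist2h3c1. Hist1h1d was called in 8 of 15, Hist2h2aa2 in 8 of 16 and Hist1h4h in 7 of 14. Leaving out TDE_1 or TDE_2 ended the calls of Hist1h1d, Hist1h4h, Hist1h4n, Hist2h2aa2 and Hist3h2a, and leaving out TDE_3 those of the same genes but Hist1h4n. Leaving out NE_2 or NE_3 ended those of Hist1h1d, Hist1h4h and Hist2h2aa2, and leaving out NE_1 those of Hist1h4h and Hist2h2aa2. Against NE, Hist1h1c was called in 16 of 16 and Hist2h3c2 in 11 of 15, and the latter call ended without NE_1, NE_2, TDE_2 or TDE_3.

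Taking all 20 tested genes, the TDE libraries did not overlap CTR and were lower in 16, where 21.8% of all genes were, and did not overlap NE and were lower in 13, where 27.7% were. The median log2 fold change of the 20 was -1.80 against CTR and -1.02 against NE, where that of all tested genes was -0.05 and -0.02. The same condition on reads touches these values. Over all 54 genes, tested or not, the mean CPM was lower in TDE than in NE for 48 of the 54 genes, and lower than in CTR_2 and CTR_3 for 46. No such share was taken over all genes, tested or not. Of all tested genes, 52.1% had a log2 fold change below 0 against NE, where 19 of 20 tested histone genes did. In the fit without CTR_1, 51.7% did against CTR, where 19 of 20 tested histone genes did. The 54 could reach the read minimum through reads of CTR or NE alone, and near-identical copies were counted separately. Of the 54, 7 had 0 reads in all 3 TDE libraries, where 3 reads correspond to 0.157 to 0.166 CPM, and CTR_1 held 32.7% to 86.8% of the reads of each, so no fold is given for them.

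Leaving out CTR_1 raised the number of calls among histone genes and among all genes alike. In that fit 11 of 20 tested genes were called lower against CTR, where 18% of all genes were, and 0 higher, where 16.4% were. Against NE, 9 were called lower, where 21.5% of all were, and 1 higher (Hist1h2bq), where 19.2% were. The NE and TDE libraries were the same in both fits, which differ in the estimate of the spread and in the genes tested.

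No histone gene passed the test between NE-treated and CTR BMDCs. Of 15028 genes, 0 (0%) had an adjusted p-value under 0.05 by edgeR, and 487 genes (3.24%) had an unadjusted p-value under 0.05, among them 4 histone genes (Hist1h2bq, Hist1h4h, Hist1h4n and Hist2h2aa1). DESeq2 called 3 genes, 0 of them histone genes. Without CTR_1, 0 histone genes were called in either direction, where 0% of all genes were called higher and 0.0196% lower. For NE against CTR the log2 fold change of Hist1h1c was -0.16 ± 0.157 (adjusted p = 0.661), and that of Hist2h2be was 0.02 ± 0.138 (adjusted p = 0.926).

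Among tested genes, the size of the excess in CTR_1 differed with the annotated 3′ end. CTR_1 was the highest of the 9 libraries for 14 of the 20 tested histone genes, where it was for 36.5% of all tested genes, and for 42 of the 54. Among the 6 tested genes with a 3′ UTR of 150 bases or fewer it was highest for 6, and among the 14 with a longer one for 8. Over all 54 genes, tested or not, the counts were closer, at 23 of 28 with short and 19 of 26 with long 3′ UTRs. The level in CTR_1 was a median of 6.45 times the mean of CTR_2 and CTR_3 in the tested genes with short 3′ UTRs. It was 1.92 times in the tested genes with long ones, against 0.945 over all tested genes. Reads in CTR_1 could help a gene enter the test, and the 6 genes include the copies Hist2h2aa1 and Hist2h2aa2. In untested genes the ratio, where it could be formed, ran from 1.58 to 18.2 with long 3′ UTRs and from 0.459 to 22.6 with short ones. The genes with short 3′ UTRs summed to 183 CPM in CTR_1, 30.8 and 25.3 CPM in CTR_2 and CTR_3, 22.0 to 32.9 CPM in NE and 11.9 to 13.9 CPM in TDE. Those with long 3′ UTRs summed to 271, 171 and 150 CPM in CTR, 142 to 172 CPM in NE and 70.3 to 80.0 CPM in TDE. Against NE the log2 ratio of TDE was -1.03 for short and -1.06 for long 3′ UTRs, and without CTR_1 it was -1.12 against CTR in both.

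Some other RNAs without a poly(A) tail also differed in CTR_1 and in the TDE group. Of 20 such RNAs with 1 entry in the table, 5 had enough reads to be tested, and 3 of these fell in TDE-treated against CTR BMDCs with CTR_1 and without it. These were Rn7sk, Rn7s1 and Rn7s2, of which Rn7s1 and Rn7s2 have identical values and are 1 measurement. Of all tested genes, 9.34% fell with CTR_1 and 18% without it. Against NE 0 of the 5 passed over all 9 libraries, where 7.21% of all tested genes were lower. Without CTR_1 4 of the 5 were lower against NE, where 21.5% of all were. Rn7sk, the 7SK RNA that holds the elongation factor P-TEFb, was at 540 CPM in CTR_1, 41.2 and 26.2 CPM in CTR_2 and CTR_3, 20.5, 28.4 and 62.1 CPM in NE and 3.16, 2.24 and 3.6 CPM in TDE. It fell in TDE-treated against CTR BMDCs (log2 fold change -6.07 ± 1.28, adjusted p = 0.0149, and -3.50 ± 0.477, adjusted p = 0.000602, without CTR_1). Rn7s1 and Rn7s2, copies of the signal recognition particle RNA with identical values, fell by 3.62 on the log2 scale (SE 1.04, adjusted p = 0.047) and by 1.45 without CTR_1 (SE 0.471, adjusted p = 0.0415). Malat1, a nuclear RNA that ends in a triple helix, was highest in TDE, at 1600 to 1750 CPM, and lowest in CTR_1, at 544 CPM (log2 fold change 0.79 ± 0.329, adjusted p = 0.13). NE_3 was the highest NE library for both Rn7sk and the histone sum. The part of poly(A) selection or priming in the histone result was not tested.

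**Figure D4:**
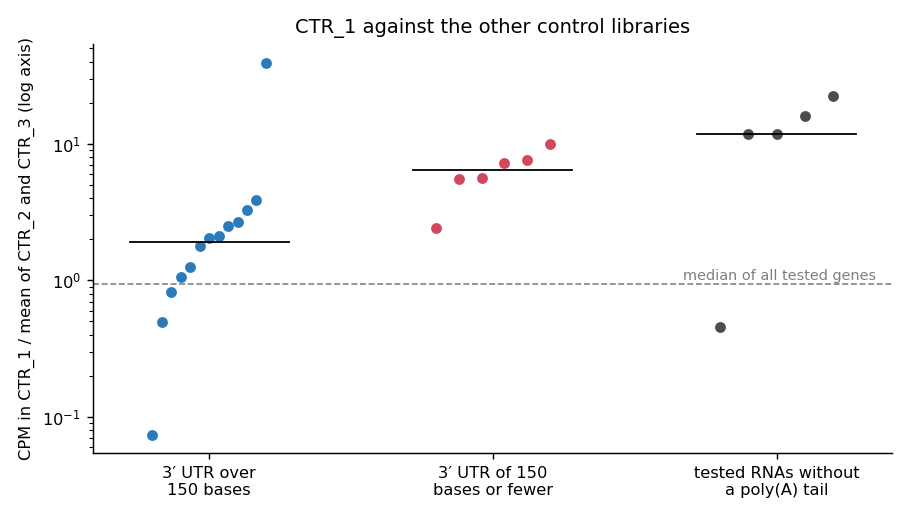
Level in CTR_1 divided by the mean of CTR_2 and CTR_3 (log axis) for the tested replication-dependent histone genes with long and with short annotated 3′ UTRs and for 5 tested RNAs without a poly(A) tail, with lines at the medians. Short 3′ UTRs have a median of 6.45, long ones 1.92 and the other RNAs 11.7, and Hist2h3c1, with 0 reads in CTR_1, cannot be drawn. Among the other RNAs, Rn7s1 and Rn7s2 have identical values.

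Histone genes outside the clusters, such as those of replacement variants, are mostly polyadenylated, although H2afx also held the stem-loop pattern. They had a median log2 fold change of -0.60 against CTR and -0.18 without CTR_1. Of 11 such genes tested, 2 fell in TDE-treated against CTR BMDCs and 0 rose, where 9.34% and 7.57% of all tested genes did. Against NE 0 passed by edgeR and 0 by DESeq2. At an unadjusted p-value under 0.05, 2 were lower against NE, where 14% of all tested genes were. Without CTR_1, 2 were lower and 1 higher in each comparison, the latter being H1fx (log2 fold change 1.05 ± 0.334, adjusted p = 0.0378, against CTR). Of all genes without CTR_1, 18% were lower and 16.4% higher against CTR, and 21.5% and 19.2% against NE. H3f3b, which encodes H3.3, was at 882, 538 and 464 CPM in CTR, 488, 488 and 594 CPM in NE and 338, 358 and 325 CPM in TDE (log2 fold change against CTR -0.88 ± 0.24, adjusted p = 0.0396). H1f0, the linker histone H1.0, was at 155, 142 and 120 CPM in CTR and 94.8, 107 and 89 CPM in TDE (-0.52 ± 0.141, adjusted p = 0.0396). The level of Hist1h1c divided by that of H1f0 was 0.659 to 0.704 in CTR, 0.618 to 0.707 in NE and 0.271 to 0.282 in TDE, so within each library the cluster gene was lower relative to H1f0 in TDE.

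Genes that make and process the 3′ end of histone mRNA were also measured. Of 21 tested, 2 fell and 1 rose against CTR, where 9.34% and 7.57% of all tested genes did. Against NE, likewise, 2 fell and 1 rose, where 7.21% and 6.73% did. Slbp was at 23.7, 45.7 and 42.9 CPM in CTR, 40.7, 40.5 and 54.2 CPM in NE and 34.3, 32.0 and 34.3 CPM in TDE (log2 fold change against CTR -0.16 ± 0.245, adjusted p = 0.652, and -0.41 ± 0.129, adjusted p = 0.0356, without CTR_1). Npat was at 5.58, 15.6 and 21.5 CPM in CTR and 20.2, 18.7 and 18.0 CPM in TDE (0.41 ± 0.404, adjusted p = 0.484). Zfp473, a zinc finger protein of the histone processing complex, rose (1.95 ± 0.324, adjusted p = 0.0059). Ncbp2, the small subunit of the nuclear cap-binding complex, fell (-1.01 ± 0.163, adjusted p = 0.0052), as did its partner Srrt (-0.71 ± 0.132, adjusted p = 0.00889). Of 21 histone chaperone genes, 0 were called against CTR by edgeR and 0 by DESeq2. At an unadjusted p-value under 0.05, 2 were lower and 0 higher, where 20.6% and 14.1% of all tested genes were. Without CTR_1 3 were higher and 1 lower against CTR, where 16.4% and 18% of all genes were. The most abundant chaperone genes, Nap1l1 and Atrx, had log2 fold changes of -0.17 ± 0.144 (adjusted p = 0.422) and 1.07 ± 0.614 (adjusted p = 0.242).

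Calls among genes of DNA replication and of mitosis were of opposite direction. Of all tested genes, 9.34% fell and 7.57% rose against CTR, and 7.21% fell and 6.73% rose against NE. Of 41 tested S-phase genes, 7 fell in TDE-treated against CTR BMDCs and 0 rose, with a median log2 fold change of -0.35, and 7 fell and 0 rose against NE. Dut, which keeps uracil out of DNA, fell by 1.44 on the log2 scale (SE 0.358, adjusted p = 0.0295). Pcna, the sliding clamp of the replication fork, was at 119, 120 and 106 CPM in CTR, 119, 113 and 155 CPM in NE and 60.7, 56.5 and 57.6 CPM in TDE (-0.98 ± 0.149, adjusted p = 0.00421). Of 30 tested G2 and M genes, 10 rose against CTR and 0 fell, with a median of 0.66, and 4 rose and 0 fell against NE. The spindle checkpoint kinase gene Bub1 rose by 1.74 on the log2 scale (SE 0.335, adjusted p = 0.0105) and Prc1, which bundles spindle microtubules, by 1.11 (SE 0.319, adjusted p = 0.0476). Without CTR_1, 12 S-phase genes were lower and 2 higher, and 20 G2 and M genes were higher and 0 lower. In that fit 18% of all genes were lower and 16.4% higher against CTR.

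**Figure D5:**
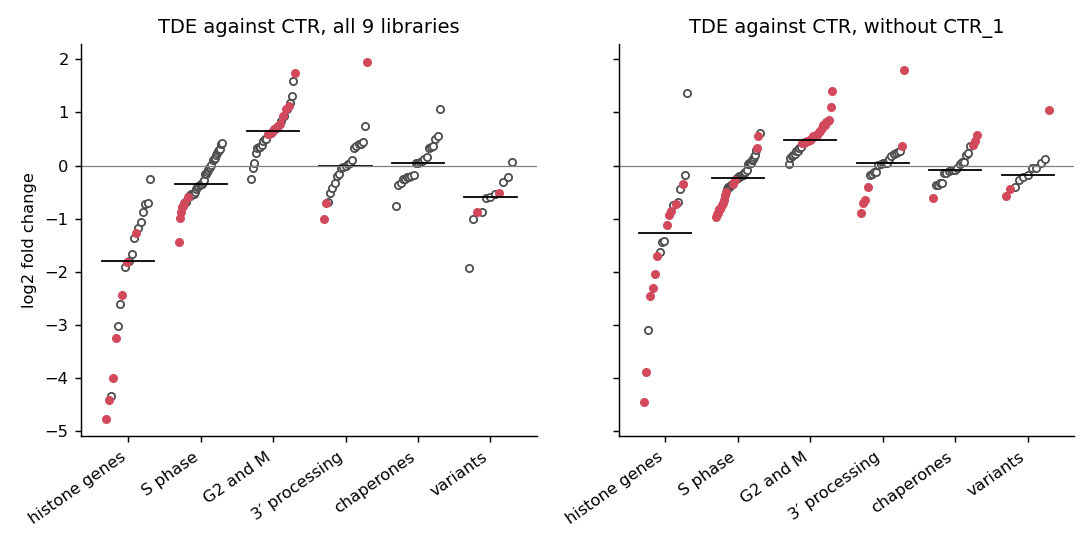
Log2 fold change of TDE against CTR for the tested replication-dependent histone genes and for 5 lists of other genes, over all 9 libraries (left) and without CTR_1 (right), with filled points for adjusted p-values under 0.05 and lines at the medians. The medians on the left are -1.80 for the histone genes, -0.35 for S phase and 0.66 for G2 and M.

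Markers of other cells of bone marrow cultures also moved with the groups. Of all tested genes, 9.34% fell in TDE-treated against CTR BMDCs and 7.57% rose. Dendritic cell genes were present in every group, with summed levels of 4200 to 12800 CPM in CTR, 4000 to 4960 CPM in NE and 2140 to 2260 CPM in TDE, with 5 of 9 tested genes lower in TDE than in CTR, and Cd209a was too low to be tested. Of 11 genes of neutrophils and their precursors, 10 fell in TDE-treated against CTR BMDCs. They summed to 7000 to 28200 CPM in CTR, with the highest in CTR_1, 7390 to 10700 CPM in NE and 3050 to 3350 CPM in TDE. Of 5 mast cell and basophil genes, 5 fell, and they summed to 77.3 to 240 CPM in CTR, 87.9 to 122 CPM in NE and 15.9 to 18.2 CPM in TDE. Macrophage genes summed to 3830 to 4170 CPM in CTR, 3630 to 4110 CPM in NE and 5070 to 5440 CPM in TDE, with 1 of 8 higher and 1 lower. Adgre1 alone rose, from a mean of 378 CPM in CTR to 2230 CPM in TDE, more than the difference in the sums. The list's median log2 fold change was -0.35, and 5 of 8 were lower and 2 higher without CTR_1, where 18% and 16.4% of all genes were. Erythroid genes summed to 11.2 CPM in CTR_1 and to 0.166 to 1.64 CPM in every other library, and the 1 tested did not pass. Of lymphoid genes, 4 of 4 tested fell, and they summed to 21 to 37.1 CPM in CTR, 18.6 to 24.3 CPM in NE and 10.8 to 11.1 CPM in TDE. Of fibroblast genes, 2 of 7 tested rose, and they summed to 10.3 to 23.5 CPM in CTR, 10.8 to 15 CPM in NE and 16.2 to 20.0 CPM in TDE. No listed marker was at 0 in all 9 libraries. The part of these cells in the histone result was not tested.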

How the data were processed

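RNA of 9 BMDC libraries (3 each of CTR, NE and TDE) was sequenced by the study on a NovaSeq instrument after TRIzol extraction, with oligo(dT) and random primers, and aligned with TopHat2 2.1.1. The counting program, genome build and annotation are not given in the sources used here. The authors deposited estimated counts (expected counts) per gene without normalization, with their means per group, which were not used. The strand setting of the counting is not stated either.

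Estimated counts were rounded. Genes were filtered with filterByExpr on the 3 groups, scaled by TMM and fitted with group as the only term, all 9 libraries together (edgeR 4.0.16, R 4.3.3). SE was taken as |log2 fold change| over the root of F. Library totals were 17469713 to 21092850 reads. Positions and transcripts were matched by gene ID to GENCODE vM21 (GRCm38), for all 54 genes, and 48 promoters to RefSeq. Per-kilobase levels use the deposited gene length. Intervals and floors cover counting error only. The model was tested on simulated counts. DESeq2 1.42.0, other scalings, filters and sample choices and a replicate block were alternatives. Named genes were the 15 with the highest mean CPM, H1 genes with a mean of at least 1 CPM, called genes (up to 10 each way per comparison), and per list the 2 largest called rises and falls against CTR or the 2 most abundant, with Slbp and Npat. Other genes named for a copy, a shared pattern or few reads, and the limit of 150 bases of 3′ UTR, were chosen after their values were seen. The genes and lists were chosen with earlier results of these data known. Tables and plots used Python 3.11.15, pandas 2.3.3 and matplotlib 3.10.9.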

Additional observations from a re-analysis of the deposited data

How the results depend on the processing

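The log2 ratios of summed histone CPM kept their direction under each scaling, with each library left out and over tested genes alone. Among named genes, 623 log2 fold changes kept direction and side of the threshold, 20 passed it newly, 35 no longer passed and 9 changed sign, none of them called in either fit. With 1 library left out, for NE against CTR, Hist1h1d ranged from -1.08 to 0.05 (above 0 without CTR_1), Hist1h4m from -1.59 to 0.49 and Hist2h2aa2 from -1.61 to 0.12 (both likewise), Hist1h2bg from -0.83 to 0.07 (above 0 without CTR_2) and Hist2h2be from -0.06 to 0.08 (-0.06 without CTR_1, -0.01 without NE_2 or NE_3). For TDE against NE, Hist1h2ae ranged from -0.38 to 0.03 (above 0 without TDE_3) and Hist1h2be from -0.64 to 0.05 (above 0 without NE_1). The number of histone genes called in TDE against CTR was 7 of 20, where 2541 of 15028 genes were called in either direction. Counts over all genes follow in brackets. It became 19 of 45 with DESeq2 (3731 of 18116) and 11 of 54 with no filter (1740 of 28991). With 10 reads in every library it was 3 of 7 (2198 of 12446). With the 6 libraries of the pair it was 2 of 15 (1152 of 14526), and with the replicate block 2 of 20 (1285 of 15028). Leaving out 1 library gave 2 to 13 calls. These were 11 of 20 without CTR_1 (5263 of 15301) and 13 of 24 without CTR_3 (3944 of 15418). There were 4 of 25 without NE_2 (1713 of 15431) and 4 of 24 without NE_3 (2015 of 15397). For the TDE libraries they were 2 of 26 without TDE_1 (1109 of 15451), 2 of 25 without TDE_2 (1177 of 15419) and 3 of 25 without TDE_3 (1103 of 15424). For TDE against NE, 2 of 20 calls (2095 of 15028) became 1 of 7 with 10 reads in every library (1808 of 12446). With the 6 libraries of the pair they became 4 of 11 (6072 of 14483). Leaving out 1 library gave 1 to 10, with 10 of 20 without CTR_1 (6223 of 15301). There was 1 of 26 without NE_1 (1136 of 15446), 1 of 25 without TDE_2 (1036 of 15419) and 1 of 25 without TDE_3 (970 of 15424). DESeq2 gave an adjusted p to 45 and the unfiltered fit to 54 of these genes, against 20, and the edgeR settings tested 7 to 54 of them. The cause of the shifts was not tested.

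Same-numbered libraries deviated together with correlations of -0.585 to 0.185 over the comparisons. For TDE against NE, which leaves out the CTR libraries, they were -0.0712 to 0.0267. The correlations with CTR rest in part on the library that stood apart. Low correlations cannot exclude shared cultures or animals, which the labels do not state, so whether the numbers pair the libraries was not decided. With the replicate block, 2 histone genes of 20 were called in TDE against CTR, 2 in TDE against NE and 0 in NE against CTR. Of all 15028 genes, 1285, 1175 and 0 were called. Depth limited 34 of the 54 genes, which were not tested.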
